A study of Mus musculus with 3 samples.

Results

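The 9 tight junction genes described here are Cldn5, Cldn3 and Cldn12 (claudins), Ocln and Marveld2 (MARVEL-domain proteins), F11r and Jam2 (junctional adhesion molecules), and Tjp1 and Cgnl1 (cytoplasmic scaffolds). They were named as a list and matched by symbol among 29787 genes that had transcripts in the tables, of which 16604 reached the minimum level of 1 in at least 1 library. All 9 reached it, and all 9 had reads in all 3 libraries. RNA came from brain vessels of 3-month-old mice in 3 groups with 1 library each. The first group was Cx43-deleted: mice with both copies of the connexin 43 gene floxed and a Cre recombinase driven by the human GFAP promoter (hGFAP-Cre/Cx43fl/fl), with a C57BL6-BALB/c (mixed) background. That promoter is active in astrocytes and neural progenitors, and endothelium is not its target. The second group was wild type (WT) C57BL6-BALB/c and the third was WT C57BL6. Nothing in the labels says whether a library held 1 mouse or several.

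Tight junctions join neighbouring brain endothelial cells and close the path between them, which is the paracellular part of the blood-brain barrier. Claudins and occludin cross the membrane and meet their partners on the next cell, junctional adhesion molecules add an immunoglobulin-like contact, and scaffolds such as ZO-1 tie these proteins to actin. ZO-1, the product of Tjp1, also binds the tail of connexin 43 in other cell contacts.

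Total reads were 54975610 in the Cx43-deleted library, 21170766 in that of WT C57BL6-BALB/c and 24830975 in that of WT C57BL6. Since no group had a second library, nothing could be tested, and each difference is one between libraries that cannot be told apart from one between animals or preparations. Levels are counts summed over the transcripts of a gene, as CPM of the library total after TMM scaling, and log2 ratios of levels carry a pseudocount of 0.5. Levels per length are reads of the transcript with the most reads as RPKM, and folds are taken on those reads with 95% intervals that cover counting error only. Gja1, the connexin 43 gene, had a level of 48.0 in the Cx43-deleted library, against 202 in WT C57BL6-BALB/c, and 202 in the WT C57BL6 library, which is the direction the labels call for. In bulk RNA, fewer cells of a type and less RNA per cell cannot be told apart.

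Of the 9 genes, 8 had their lowest level in the Cx43-deleted library and 0 had their highest there, the exception being Marveld2. Over all genes measured, 35.6% were lowest in Cx43-deleted and 33.2% highest. Most of the 8 differences were small. None of the 9 was 2-fold or more below both WT libraries, where 0.379% of all genes were, and 2 (Cldn3 and F11r) were below both by 0.32 or more on the log2 scale, where 7.29% were. For 6 of the 8 the counting intervals lay below 1 against each WT library, the other 2 being Cldn3 and Tjp1. The share of all genes with such intervals was not worked out, so whether 6 is many or few is not known. Such an interval can exclude 1 for a small difference, as for Ocln, 1.06-fold lower (1.01 to 1.12) than in WT C57BL6-BALB/c. Against the background-matched WT C57BL6-BALB/c, all 9 were lower in Cx43-deleted, where 49.5% of all genes were, with a median log2 ratio of −0.29, and only Marveld2 of the 9 was 2-fold lower, where 1.01% of all genes were. Against WT C57BL6, 8 were lower, where 52.9% of all genes were, with a median of −0.68, and Cldn5 and F11r were 2-fold lower, where 2.91% were. F11r was at the edge of 2-fold, with a log2 ratio of −1.004.

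The wild types also differed from each other without any deletion. WT C57BL6-BALB/c was lower than WT C57BL6 in 6 of the 9 genes, where 53.3% of all genes were, with a median log2 ratio of −0.52. Cldn5 was 2-fold lower there, where 2.09% of all genes were, and Marveld2 2-fold higher, where 1.17% were. WT C57BL6 was the highest library for those 6 genes (Cldn5, Ocln, Tjp1, F11r, Jam2 and Cgnl1), as it was for 43.8% of all genes. The 3 comparisons share libraries and are not independent. When levels were set relative to endothelial markers, the genes below both WT libraries numbered 4 and those above both 2, and the median against WT C57BL6 turned to 0.10, so the count of 8 depends on that choice. No share of all genes was worked out under that scaling, so whether these counts are many or few is not known.

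**Figure D1:**
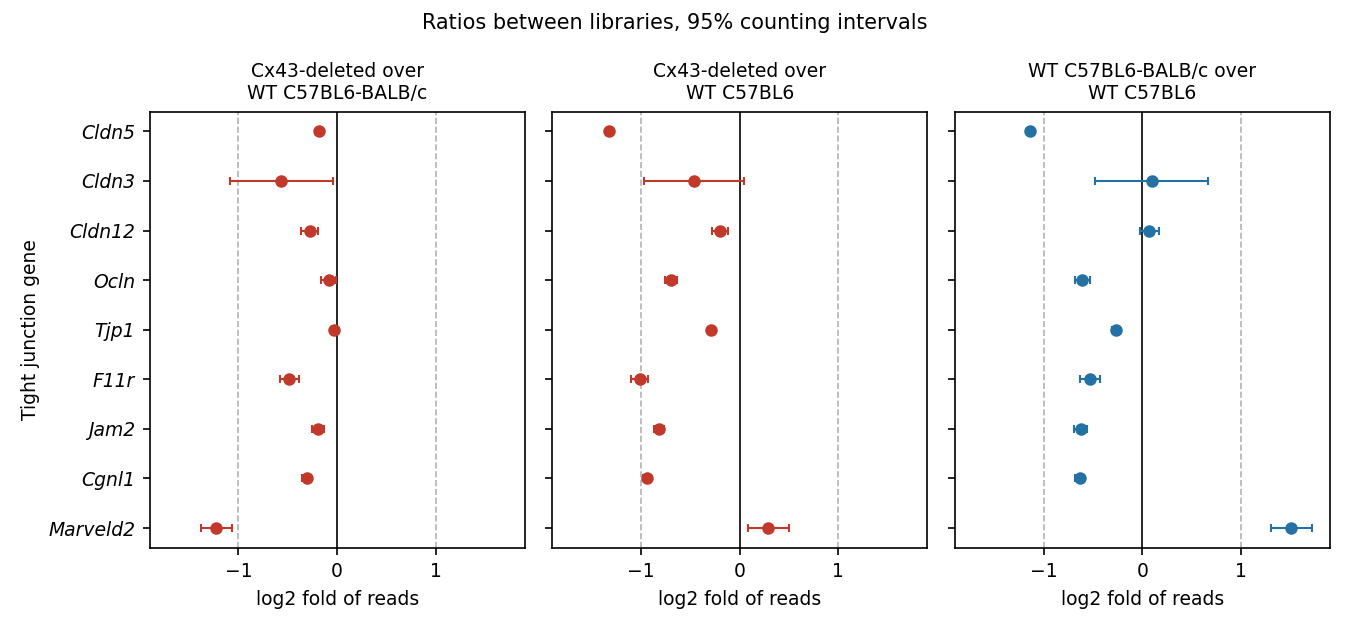
Each point is the log2 fold of reads on the most-read transcript between 2 libraries, for the 9 tight junction genes, with 95% counting intervals; dashed lines mark 2-fold. Against WT C57BL6-BALB/c only Marveld2 lies past a dashed line among the 9, and against WT C57BL6 Cldn5 and F11r do, F11r with an interval that crosses the line.

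Cldn5, Ocln, Tjp1, F11r, Jam2 and Cgnl1 were lowest in Cx43-deleted and highest in WT C57BL6. The regions just before the start sites of 3 of these (Cldn5, F11r and Cgnl1) are shown, with that of Marveld2, which had another order. They are the 250 bases before the start in RefSeq on GRCm38.p6, 5′ to 3′ along the gene, at chr16:18776597-18776846, plus strand (Cldn5), chr1:171437311-171437560, plus strand (F11r), chr9:71771603-71771852, minus strand (Cgnl1) and chr13:100616972-100617221, minus strand (Marveld2). The gene span given below for F11r begins at 171437535, so the F11r window reaches into that span. Capitals mark matches to the motifs named after them.
Cldn5: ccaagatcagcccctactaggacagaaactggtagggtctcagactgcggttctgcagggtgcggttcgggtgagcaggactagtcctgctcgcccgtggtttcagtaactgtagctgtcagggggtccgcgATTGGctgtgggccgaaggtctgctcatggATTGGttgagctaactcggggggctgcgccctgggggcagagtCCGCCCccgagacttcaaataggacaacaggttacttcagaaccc
F11r: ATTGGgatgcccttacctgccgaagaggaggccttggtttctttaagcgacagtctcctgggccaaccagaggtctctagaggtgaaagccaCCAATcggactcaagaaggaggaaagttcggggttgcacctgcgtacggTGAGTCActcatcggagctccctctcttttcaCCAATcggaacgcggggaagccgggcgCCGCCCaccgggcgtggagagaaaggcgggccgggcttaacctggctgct
Cgnl1: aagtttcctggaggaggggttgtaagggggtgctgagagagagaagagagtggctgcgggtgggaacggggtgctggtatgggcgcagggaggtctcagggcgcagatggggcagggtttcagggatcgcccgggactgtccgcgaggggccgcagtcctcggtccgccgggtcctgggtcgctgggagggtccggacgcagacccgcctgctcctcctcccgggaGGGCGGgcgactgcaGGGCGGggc
Marveld2: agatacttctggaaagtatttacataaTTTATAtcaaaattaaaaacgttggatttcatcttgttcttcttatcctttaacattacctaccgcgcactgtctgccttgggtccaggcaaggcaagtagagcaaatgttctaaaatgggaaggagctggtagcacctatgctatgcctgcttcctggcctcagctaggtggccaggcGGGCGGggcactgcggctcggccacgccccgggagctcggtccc

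Motifs were searched by their letters on both strands, and are descriptions of these letters, not sites. The GC box GGGCGG was found in all 4 windows and in 32.7% of 32817 promoter windows of the same length. The CCAAT box (CCAAT) had 2 matches in Cldn5 and 3 in F11r, and was found in 33.8% of all windows. The TATA letters TATAAA, on the opposite strand and far from the start, were found in Marveld2 and in 12.4% of all windows. An AP-1 motif (TGANTCA) was found in F11r and in 6.75% of all windows. The ETS core CGGAAG, the SOX motif ACAATG, the FOX motif GTAAACA and the TCF/LEF motif CTTTGAT were not found in these 4 windows, against 13.6%, 10.7%, 3.16% and 3.21% of all windows. Among the windows not printed, those of Tjp1 and Cldn12 each held an ETS core, and that of Cldn12 held no GC box. What was found or missing in the 4 windows therefore depends on their choice. GC made up 59.6% of the Cldn5 window, 60.0% of that of F11r, 70.8% of that of Cgnl1 and 50.4% of that of Marveld2, where the median window had 52.4%.

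Claudin 5 is the main sealing protein between brain endothelial cells, and its gene had the highest level per length of the 9. Cldn5 (ENSMUSG00000041378; GRCm38 chromosome 16, 18776847 to 18778262) had 24985 reads in the Cx43-deleted library, against 11223 in WT C57BL6-BALB/c, and 29576 in the WT C57BL6 library. Per length, this was 329 RPKM in Cx43-deleted, against 374 RPKM in WT C57BL6-BALB/c, and 823 RPKM in the WT C57BL6 library. Both libraries of the mixed background were thus low and the C57BL6 library stood apart from them. The Cx43-deleted reads were 1.14-fold lower (1.11 to 1.16) than in WT C57BL6-BALB/c and 2.50-fold lower (2.46 to 2.54) than in WT C57BL6. WT C57BL6-BALB/c, with no deletion, was 2.20-fold lower (2.15 to 2.25) than WT C57BL6. No base of the 1414-base transcript lacked a read in any library.

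Claudin 12 differed less. It is a claudin of broad expression that is also found in brain endothelium. Cldn12 (ENSMUSG00000046798; chromosome 5, 5489537 to 5514958) had 3378 reads in Cx43-deleted, against 1617 in WT C57BL6-BALB/c, and 1842 in the WT C57BL6 library, or 17.5 RPKM in Cx43-deleted, against 21.2 RPKM in WT C57BL6-BALB/c, and 20.2 RPKM in the WT C57BL6 library. The Cx43-deleted level per length lay below both WT libraries, 1.21-fold (1.14 to 1.29) lower than WT C57BL6-BALB/c, and 1.15-fold (1.09 to 1.22) lower than WT C57BL6. The fold between WT C57BL6-BALB/c and WT C57BL6 was 1.05 (0.983 to 1.12), an interval that includes 1. Cldn12 was thus a claudin for which the WT libraries were closer to each other than either was to the Cx43-deleted library.

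Claudin 3 was close to the lower limit of these data. Its protein is found in choroid plexus epithelium, and its presence in mouse brain endothelium has been disputed. Cldn3 (ENSMUSG00000070473; chromosome 5, 134986214 to 134987472) had 87 reads in Cx43-deleted, against 51 in WT C57BL6-BALB/c, and 57 in the WT C57BL6 library, which is 1.29 RPKM (1.03 to 1.59) in Cx43-deleted, against 1.91 RPKM (1.42 to 2.51) in WT C57BL6-BALB/c, and 1.78 RPKM (1.35 to 2.31) in the WT C57BL6 library. The reads left 71 of 1259 bases uncovered in Cx43-deleted, against 372 in WT C57BL6-BALB/c, and 245 in the WT C57BL6 library. Cx43-deleted was lower than WT C57BL6-BALB/c by 1.48-fold (1.03 to 2.12) and lower than WT C57BL6 by 1.38-fold (0.973 to 1.95), so at this depth a difference from WT C57BL6 was not detectable. Markers of choroid plexus epithelium ran in another order, with a summed level of 4881 over 16 of 16 genes in Cx43-deleted, against 3698 in WT C57BL6-BALB/c, and 9196 in the WT C57BL6 library, and no marker was at 0. Of the exon bases of Cldn3, 3.18% are shared with another gene, and the kit keeps no strand.

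Occludin is a membrane protein of tight junction strands whose C terminus binds ZO-1. Ocln (ENSMUSG00000021638; chromosome 13, 100496507 to 100552718) had 4953 reads in Cx43-deleted, against 2080 in WT C57BL6-BALB/c, and 3799 in the WT C57BL6 library. Its level per length was 28.9 RPKM in Cx43-deleted, against 30.7 RPKM in WT C57BL6-BALB/c, and 46.8 RPKM in the WT C57BL6 library. The mixed-background libraries lay close together, 1.06-fold (1.01 to 1.12) apart, and Cx43-deleted was 1.62-fold lower (1.55 to 1.69) than WT C57BL6.

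Tricellulin, which seals the points where 3 cells meet, was the exception among the 9. Its gene Marveld2 (ENSMUSG00000021636; chromosome 13, 100595957 to 100616971) had 687 reads in Cx43-deleted, against 635 in WT C57BL6-BALB/c, and 267 in the WT C57BL6 library. Scaled for depth and length, these were 4.22 RPKM in Cx43-deleted, against 9.86 RPKM in WT C57BL6-BALB/c, and 3.46 RPKM in the WT C57BL6 library. WT C57BL6-BALB/c was the high library and the other two were close to each other. The Cx43-deleted reads were 2.34-fold lower (2.10 to 2.61) than in WT C57BL6-BALB/c and 1.22-fold higher (1.06 to 1.41) than in WT C57BL6. WT C57BL6-BALB/c was 2.85-fold higher (2.47 to 3.30) than WT C57BL6. Over all genes measured, 56 (0.337%) stood 2-fold or more above both other libraries in WT C57BL6-BALB/c, and Marveld2 was among them.

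Ocln and Marveld2 are neighbours on chromosome 13 and are read from the same strand, yet they were ordered differently across the libraries. On the far side of Marveld2, Rad17, a checkpoint protein gene, had a level of 28.4 in Cx43-deleted, against 28.6 in WT C57BL6-BALB/c, and 27.2 in the WT C57BL6 library. On the far side of Ocln, Gtf2h2, a subunit gene of a transcription factor complex, had a level of 116 in Cx43-deleted, against 97.3 in WT C57BL6-BALB/c, and 74.0 in the WT C57BL6 library. Neither coding neighbour shared the high value of WT C57BL6-BALB/c. A list of pituitary genes, like Marveld2, was highest in WT C57BL6-BALB/c. Its summed level over 10 genes was 10.1 in Cx43-deleted, against 196 in WT C57BL6-BALB/c, and 13.1 in the WT C57BL6 library. Of the 10, 7 reached the minimum level in at least 1 library, among them Prl and Fshb, which had no read in WT C57BL6. Their median log2 ratio was −3.68 for Cx43-deleted over WT C57BL6-BALB/c. A gene could pass the minimum through WT C57BL6-BALB/c alone, where the list was high, so this median can owe part of its size to the filter. Over WT C57BL6 the median of the 7 was 0.10, which is the value that 2 reads against 0 give with the pseudocount. It lies at the floor, and its sign says nothing about the list. The part of such cells in the Marveld2 reads was not tested.

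Junctional adhesion molecule A is made by endothelium, epithelium, platelets and leukocytes. Its gene F11r (ENSMUSG00000038235; chromosome 1, 171437535 to 171464603) had 2438 reads in Cx43-deleted, against 1348 in WT C57BL6-BALB/c, and 2332 in the WT C57BL6 library. That is 18.0 RPKM in Cx43-deleted, against 25.2 RPKM in WT C57BL6-BALB/c, and 36.5 RPKM in the WT C57BL6 library. The 3 libraries were spread out, with Cx43-deleted lowest. Cx43-deleted was 1.40-fold lower (1.31 to 1.496) than WT C57BL6-BALB/c and 2.02-fold lower (1.91 to 2.14) than WT C57BL6, and WT C57BL6-BALB/c was 1.44-fold lower (1.35 to 1.55) than WT C57BL6. Platelet markers, which include genes of another F11r-bearing cell, had a summed level over 6 of 6 genes of 45.0 in Cx43-deleted, against 46.8 in WT C57BL6-BALB/c, and 53.5 in the WT C57BL6 library, with none at 0. The median log2 ratio of the 6 had the other sign against WT C57BL6-BALB/c, at 0.38 for Cx43-deleted over WT C57BL6-BALB/c. Of the 6, 2 were below both WT libraries, a share near the 35.6% of all genes. The part of platelets in the F11r reads was not tested.

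Junctional adhesion molecule B, the product of Jam2 (ENSMUSG00000053062; chromosome 16, 84774123 to 84825928), pairs with JAM-C and supports leukocyte passage. Jam2 had 6769 reads in Cx43-deleted, against 3070 in WT C57BL6-BALB/c, and 5664 in the WT C57BL6 library, or 28.9 RPKM in Cx43-deleted, against 33.1 RPKM in WT C57BL6-BALB/c, and 51.0 RPKM in the WT C57BL6 library. It followed the order of F11r with a smaller step between the mixed-background libraries. Cx43-deleted was 1.15-fold lower (1.10 to 1.20) than WT C57BL6-BALB/c and 1.77-fold lower (1.71 to 1.83) than WT C57BL6.

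Of the scaffolds, Tjp1 (ENSMUSG00000030516; chromosome 7, 65296165 to 65527781) encodes ZO-1, which is found in many cell types besides endothelium. It had 20284 reads in Cx43-deleted, against 8180 in WT C57BL6-BALB/c, and 11772 in the WT C57BL6 library. Its level per length was 53.6 RPKM in Cx43-deleted, against 54.7 RPKM in WT C57BL6-BALB/c, and 65.7 RPKM in the WT C57BL6 library. The mixed-background libraries were 1.02-fold apart, with an interval of 0.994 to 1.05 that includes 1, so a difference between them was not detectable. Against WT C57BL6, Cx43-deleted was 1.23-fold lower (1.20 to 1.254). Paracingulin, the product of Cgnl1 (ENSMUSG00000032232; chromosome 9, 71626509 to 71771602), is a junctional scaffold protein related to cingulin. Cgnl1 had 11895 reads in Cx43-deleted, against 5823 in WT C57BL6-BALB/c, and 10807 in the WT C57BL6 library, or 32.8 RPKM in Cx43-deleted, against 40.7 RPKM in WT C57BL6-BALB/c, and 63.0 RPKM in the WT C57BL6 library. Cx43-deleted was 1.24-fold lower (1.20 to 1.28) than WT C57BL6-BALB/c and 1.92-fold lower (1.87 to 1.97) than WT C57BL6, so the scaffolds differed from each other in size.

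**Figure D2:**
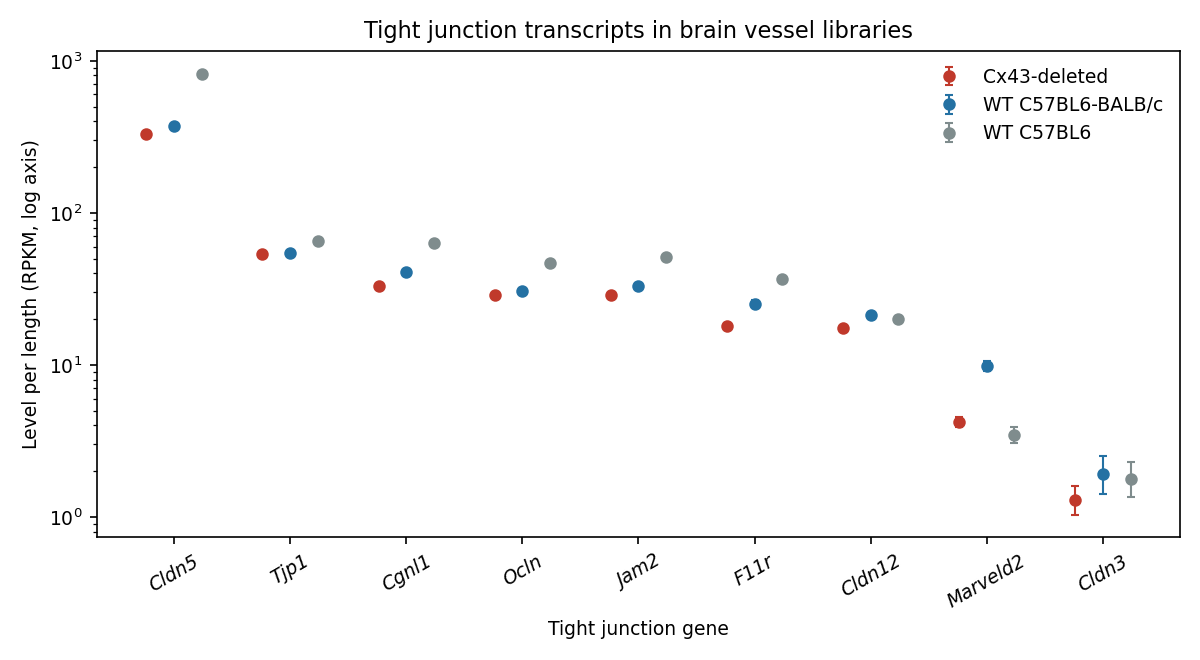
Levels per length (RPKM, log axis) of the 9 tight junction genes in the Cx43-deleted, the WT C57BL6-BALB/c and the WT C57BL6 library, with 95% Poisson intervals of the read counts. Cldn5 is highest in each library, 329, 374 and 823 RPKM, and Cldn3 lowest, and Marveld2 is the gene with its highest point in WT C57BL6-BALB/c by more than its interval.

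The order of the levels per length was similar in the 3 libraries. Cldn5 came first, then Tjp1 and Cgnl1, then Ocln and Jam2, then F11r and Cldn12, then Marveld2 and Cldn3. Ocln and Jam2 did not differ beyond counting error in Cx43-deleted, with a ratio of 1.002 (0.966 to 1.04), while Jam2 was ahead of Ocln in WT C57BL6-BALB/c by 1.08-fold (1.02 to 1.14) and in WT C57BL6 by 1.09-fold (1.05 to 1.14). F11r and Cldn12 did not differ beyond counting error in Cx43-deleted, with a ratio of 1.03 (0.978 to 1.09), against 1.19 (1.11 to 1.28) in WT C57BL6-BALB/c, and 1.81 (1.70 to 1.92) in the WT C57BL6 library. Every other neighbouring pair in the order had an interval that excluded 1 in each of the 3 libraries.

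Cldn5 made up 64.0% of the summed level per length of the 9 genes in Cx43-deleted, against 63.3% in WT C57BL6-BALB/c, and 74.1% in the WT C57BL6 library. Ratios of genes within a library need no scaling between libraries. Cldn5 exceeded Tjp1 6.14-fold (6.03 to 6.26) in Cx43-deleted, against 6.84-fold (6.65 to 7.04) in WT C57BL6-BALB/c, and 12.5-fold (12.3 to 12.8) in the WT C57BL6 library. It exceeded Cldn12 18.8-fold (18.2 to 19.5) in Cx43-deleted, against 17.7-fold (16.8 to 18.6) in WT C57BL6-BALB/c, and 40.8-fold (39.0 to 42.8) in the WT C57BL6 library. The ratio to Jam2, another gene found in endothelium, was 11.4 (11.1 to 11.7) in Cx43-deleted, against 11.3 (10.9 to 11.8) in WT C57BL6-BALB/c, and 16.1 (15.7 to 16.6) in the WT C57BL6 library. Against all 8 other genes the Cldn5 ratio was highest in WT C57BL6. By arithmetic this restates that Cldn5 had the lowest log2 ratio of the 9 in both comparisons with WT C57BL6, and the 8 are not separate observations. The ratio to F11r, which like Cldn5 was lower in Cx43-deleted than in WT C57BL6-BALB/c but by more, was 18.3 (17.5 to 19.0) in Cx43-deleted, against 14.8 (14.01 to 15.7) in WT C57BL6-BALB/c.

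**Figure D3:**
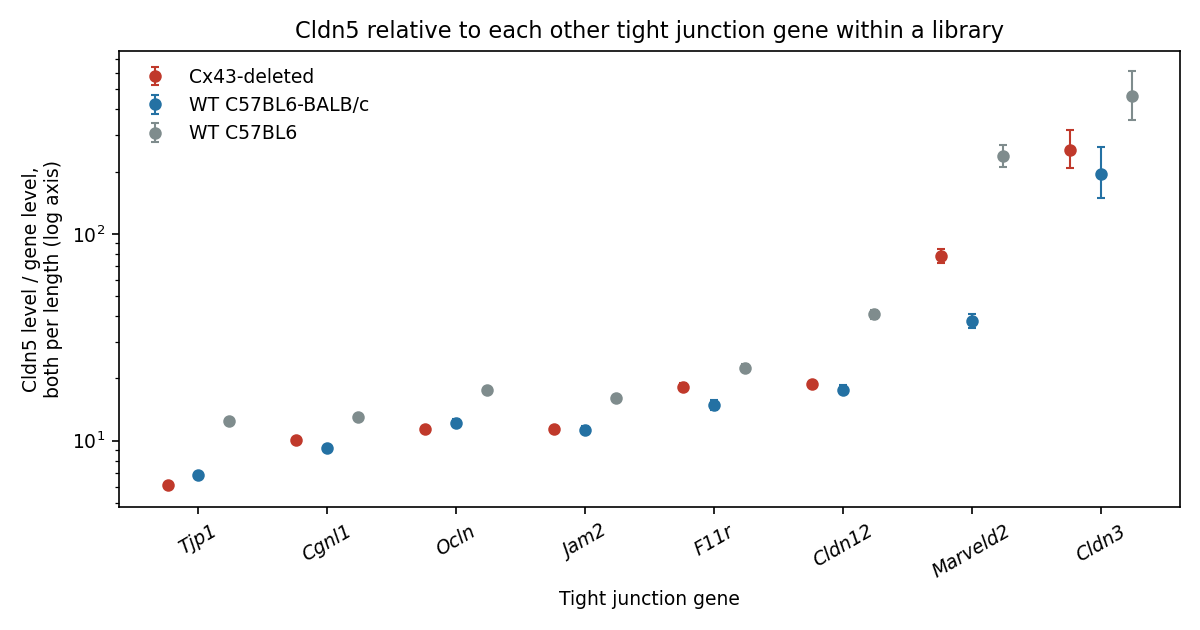
The level per length of Cldn5 divided by that of each other tight junction gene in the same library (log axis), with 95% counting intervals, for the Cx43-deleted, the WT C57BL6-BALB/c and the WT C57BL6 library. The ratio is highest in WT C57BL6 for all 8 genes, for example 6.14, 6.84 and 12.5 for Tjp1, and all 8 share the level of Cldn5.

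The deposited tables hold 27 transcripts of the 9 genes, and a read is counted on each transcript it overlaps. Transcripts of a gene therefore share reads, and their folds are not separate measurements. Transcripts of Jam2 and F11r had similar shares in the 3 libraries. Jam2-201, a shorter coding transcript, had 7.06% of the reads of Jam2-202 in Cx43-deleted, against 7.59% in WT C57BL6-BALB/c, and 7.12% in the WT C57BL6 library. F11r-203, annotated as a retained intron, had 40.6% of the reads of F11r-201 in Cx43-deleted, against 41.2% in WT C57BL6-BALB/c, and 41.0% in the WT C57BL6 library. In Cgnl1, the 4487-base transcript Cgnl1-203 had 43.8% of the reads of Cgnl1-201 in Cx43-deleted, against 44.2% in WT C57BL6-BALB/c, and 39.7% in the WT C57BL6 library. Its reads were 0.575 times those of WT C57BL6 in Cx43-deleted, against 0.521 times for Cgnl1-201. Short transcripts of Cldn12, all with few reads, were compared with the long Cldn12-201. A 359-base coding transcript had 90 reads in Cx43-deleted, against 56 in WT C57BL6-BALB/c, and 32 in the WT C57BL6 library, and WT C57BL6-BALB/c was 2.10-fold above WT C57BL6 (1.33 to 3.35), where the 3597-base Cldn12-201 was 1.05-fold above.

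Endothelial markers outside the junctions were mostly highest in WT C57BL6, as Cldn5, Cgnl1, F11r and Jam2 were. All 30 of 30 reached the minimum level and none was at 0. Of them 27 were highest in WT C57BL6, where 43.8% of all genes were. Their summed level was 17043 in Cx43-deleted, against 16371 in WT C57BL6-BALB/c, and 26577 in the WT C57BL6 library. The sum and the median differ in sign between the mixed-background libraries. The median log2 ratio was −0.12 for Cx43-deleted over WT C57BL6-BALB/c, −0.78 for Cx43-deleted over WT C57BL6 and −0.67 for WT C57BL6-BALB/c over WT C57BL6. Relative to these medians, Cldn5 stayed lower than in WT C57BL6, at −0.54 in Cx43-deleted and −0.46 in WT C57BL6-BALB/c. Its log2 ratio of Cx43-deleted over WT C57BL6, −1.32, was at the low end of the 30 markers and level with Emcn, an endothelial sialomucin chosen after its value was seen, at −1.32. On the most-read transcripts Cx43-deleted was 2.53-fold lower (2.39 to 2.68) than WT C57BL6 for Emcn, an interval that holds the 2.50-fold of Cldn5. Ocln and Jam2 lay near the endothelial medians, at 0.10 and −0.04 for Cx43-deleted over WT C57BL6. In that comparison Tjp1 and Cldn12 lay above the endothelial median, at 0.50 and 0.59. For Cx43-deleted over WT C57BL6-BALB/c, Tjp1 was at 0.09 and Cldn12 lay below the median, at −0.16. F11r lay below in both comparisons, at −0.36 relative to WT C57BL6-BALB/c and −0.22 relative to WT C57BL6.

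**Figure D4:**
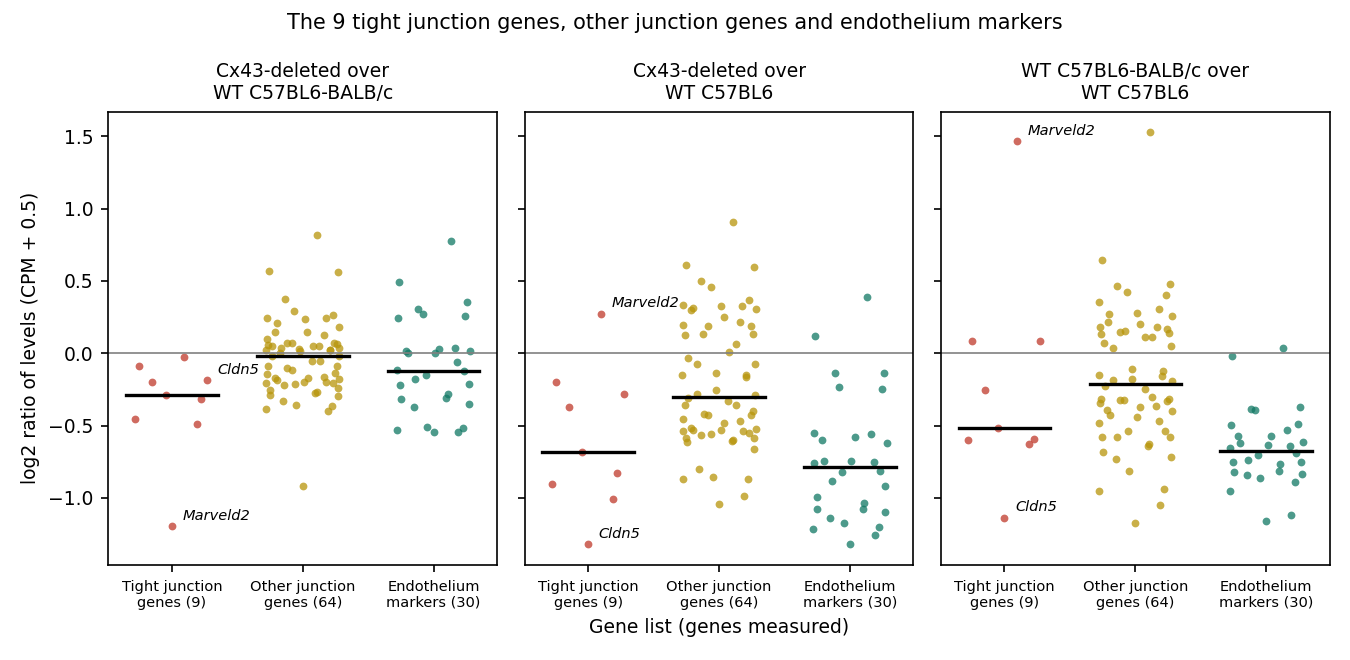
Log2 ratios of levels (CPM + 0.5) for the 9 tight junction genes, 64 other junction genes and 30 endothelium markers in the 3 pairs of libraries; each point is a gene and black bars are medians. The 9 genes have medians of −0.29, −0.68 and −0.52 and the endothelium markers −0.12, −0.78 and −0.67, with Cldn5 at the low end in both comparisons with WT C57BL6.

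Other vessel and brain cell types did not share 1 order. Pericyte markers had a summed level of 3052 in Cx43-deleted, against 3045 in WT C57BL6-BALB/c, and 5006 in the WT C57BL6 library. Smooth muscle markers were at 2285 in Cx43-deleted, against 3920 in WT C57BL6-BALB/c, and 3011 in the WT C57BL6 library, and astrocyte markers, Gja1 included, at 2859 in Cx43-deleted, against 3230 in WT C57BL6-BALB/c, and 3480 in the WT C57BL6 library. Neuron markers were at 5749 in Cx43-deleted, against 5716 in WT C57BL6-BALB/c, and 4276 in the WT C57BL6 library, and oligodendrocyte markers at 13745 in Cx43-deleted, against 14116 in WT C57BL6-BALB/c, and 17602 in the WT C57BL6 library. Fibroblast markers were at 541 in Cx43-deleted, against 564 in WT C57BL6-BALB/c, and 709.9 in the WT C57BL6 library, microglia markers at 319 in Cx43-deleted, against 303 in WT C57BL6-BALB/c, and 458 in the WT C57BL6 library, and ependyma markers at 218 in Cx43-deleted, against 358 in WT C57BL6-BALB/c, and 403 in the WT C57BL6 library. None of these markers was at 0 in any library, and the part of these cells in the junction genes' levels was not tested. For neurons, too, sum and median differ in sign against WT C57BL6-BALB/c, with a median log2 ratio of −0.10.

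Among 64 other junction genes that reached the minimum level, 27 were lower than both WT libraries and 15 higher than both, where 35.6% and 33.2% of all genes were, and they had median log2 ratios of −0.02 for Cx43-deleted over WT C57BL6-BALB/c and −0.30 over WT C57BL6. Over all genes the medians were 0.003 and −0.03. These shares of all genes are also the background of the counts per list that follow. Of the adherens junction genes, 10 of 13 were below both and 0 above both. Relative to the endothelium markers, of which 17 of 30 were themselves below both, 3 of the 13 were below both. The shares of all genes above do not apply to that last count, which was taken under another scaling. Cdh5, the endothelial cadherin, had a level of 190 in Cx43-deleted, against 244 in WT C57BL6-BALB/c, and 392.3 in the WT C57BL6 library. Pecam1, an endothelial contact protein, was at 1145 in Cx43-deleted, against 1378 in WT C57BL6-BALB/c, and 2264 in the WT C57BL6 library, and Ptprb, whose product VE-PTP is a phosphatase that acts on VE-cadherin, at 351 in Cx43-deleted, against 428 in WT C57BL6-BALB/c, and 502 in the WT C57BL6 library. Nectin3, an adhesion protein, was at 49.9 in Cx43-deleted, against 60.5 in WT C57BL6-BALB/c, and 65.9 in the WT C57BL6 library, and the interval of its most-read transcript against WT C57BL6-BALB/c includes 1.

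Of the scaffolds and polarity proteins, 7 of 23 were lowest in Cx43-deleted and 9 highest there, shares near those of all genes (35.6% and 33.2%). Cgn, cingulin, a paralogue of Cgnl1 found in epithelia, had a level of 39.3 in Cx43-deleted, against 32.7 in WT C57BL6-BALB/c, and 20.7 in the WT C57BL6 library, the reverse of the order of Cgnl1. Reads of the most-read Cgn transcript left 1548 of 4963 bases uncovered in Cx43-deleted, against 1880 in WT C57BL6-BALB/c, and 2425 in the WT C57BL6 library. This patchy coverage makes the level of Cgn uncertain. Patj, a polarity scaffold, was at 124 in Cx43-deleted, against 105 in WT C57BL6-BALB/c, and 81.9 in the WT C57BL6 library, and Sympk, symplekin, at 548 in Cx43-deleted, against 465 in WT C57BL6-BALB/c, and 424 in the WT C57BL6 library. Amot, angiomotin, was on the low side, at 115 in Cx43-deleted, against 145 in WT C57BL6-BALB/c, and 183 in the WT C57BL6 library. Of 11 genes of Rap1 and cerebral cavernous malformation signalling, which steadies endothelial contacts, 5 were below both and 3 above both, also near the shares of all genes. Heg1, a receptor of that pathway, was at 603 in Cx43-deleted, against 786 in WT C57BL6-BALB/c, and 873 in the WT C57BL6 library, and Rap1b, a small GTPase, at 92.7 in Cx43-deleted, against 107 in WT C57BL6-BALB/c, and 140 in the WT C57BL6 library. Rap1a, a close paralogue of Rap1b that may share reads with copies, was at 4.18 in Cx43-deleted, against 5.52 in WT C57BL6-BALB/c, and 5.98 in the WT C57BL6 library, and Rasip1, for which 42.9% of exon bases overlap other genes, at 91.8 in Cx43-deleted, against 108 in WT C57BL6-BALB/c, and 134 in the WT C57BL6 library.

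Of 9 other membrane proteins of tight junctions, 2 lay under both WT libraries and 3 over both, against 35.6% and 33.2% of all genes. Lsr, angulin-1, which recruits tricellulin to tricellular contacts, had a level of 349 in Cx43-deleted, against 428 in WT C57BL6-BALB/c, and 638 in the WT C57BL6 library. The order of Lsr was thus not that of Marveld2, although 44.7% of its exon bases are shared with other genes, which makes its level uncertain. Cxadr, an adhesion protein, was at 161 in Cx43-deleted, against 145 in WT C57BL6-BALB/c, and 128 in the WT C57BL6 library, and Ildr2, an angulin family protein, at 264 in Cx43-deleted, against 253 in WT C57BL6-BALB/c, and 210 in the WT C57BL6 library. Igsf5 shares all of its exon bases with other annotated genes, which makes its level uncertain, and was at 14.8 in Cx43-deleted, against 15.9 in WT C57BL6-BALB/c, and 22.5 in the WT C57BL6 library. Of 16 other claudins with transcripts in the tables, 8 reached the minimum level, 3 of these had their lowest level in Cx43-deleted, close to the 35.6% of all genes, and 0 their highest. Cldn10 was at 22.7 in Cx43-deleted, against 25.7 in WT C57BL6-BALB/c, and 30.7 in the WT C57BL6 library, and Cldn11, the claudin of myelin, at 71.4 in Cx43-deleted, against 76.0 in WT C57BL6-BALB/c, and 87.0 in the WT C57BL6 library. For Cldn10 and Igsf5, too, the interval against WT C57BL6-BALB/c includes 1.

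By distance in the log2 ratios of the Cx43-deleted library to each WT library, the genes closest to Cldn5 among 64 junction genes at a level of 5 or more were Cdh5 (0.33), Pecam1 (0.35), Cgnl1 (0.44), F11r (0.44) and Lsr (0.46). The likeness rests on 3 libraries and is a description.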

How the data were processed

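RNA-seq of brain vessels was analysed in 3 libraries, 1 per group, grouped by the labels. The authors deposited whole-number read counts for 82813 Ensembl transcripts per library, not normalised, per the file headers. A second deposited column gives each count as a fraction of the library total, which yielded the totals. Counts sum to 2.55, 2.53 and 2.45 times the totals for the Cx43-deleted, the WT C57BL6-BALB/c and the WT C57BL6 library, because overlapping transcripts each received the same read. The submitters' processing notes name CASAVA 1.8.2, Bowtie and mm10; the counting program and annotation are not stated there, and the tables' coordinates were not used. The poly(A) kit named in the labels (TruSeq v2) keeps no strand.

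Transcripts were matched to GENCODE M21 (GRCm38), 69375 of 82813 (83.8%), and 213 on another chromosome were left out. Counts were summed per gene and scaled by TMM (0.976, 1.002 and 1.02; edgeR 4.0.16, R 4.3.3), and genes reaching a level of 1 in any library were kept. Folds used the transcript with the most reads, with exact binomial intervals (scipy 1.17.1). All 9 tight junction genes were named. From each other junction list up to 4 genes were named, those furthest outside both WT libraries at a level of 5 or more. The genes and lists were chosen with earlier results of these data known. Other settings tried were pseudocounts of 0.1 and 1, no TMM, DESeq2 size factors, other filters, single transcripts, and scaling to 30 endothelial markers.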

Additional observations from a re-analysis of the deposited data

How the results depend on the processing

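No paired analysis was possible because each group has 1 library, and no library could be left out within a group. Pseudocounts of 0.1 or 1, DESeq2 median-of-ratios size factors, other filters on low levels and single transcripts changed the sign of none of the log2 ratios of the 9 genes. With a pseudocount of 1, or with a minimum level of 5, which leaves out Cldn3, the genes below both WT libraries by 0.32 or more on the log2 scale numbered 1, not 2, and with library totals and no TMM factor they numbered 3. With library totals and no TMM factor, the median log2 ratio of Cx43-deleted over WT C57BL6 was −0.75, and it was −0.75 with a minimum level of 5, against −0.68. F11r in that comparison fell short of 2-fold with DESeq2 size factors, at −0.9765, and with a pseudocount of 1, at −0.9993.

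Relative to the endothelium marker list, which by construction moves every ratio by 0.12, 0.78 and 0.67 in the 3 comparisons, the medians were −0.16 for Cx43-deleted over WT C57BL6-BALB/c, 0.10 for Cx43-deleted over WT C57BL6 and 0.15 for WT C57BL6-BALB/c over WT C57BL6. Of the 9 genes 4 then lay below both WT libraries, 0 by 0.32 or more, and 2 above both, and of the other 64 junction genes 4 lay below both, against 27. The shares of all genes given for the main scaling are no background for these counts, and none was worked out here. Of the 27 log2 ratios, 11 changed sign under this scaling. Depth limits Cldn3 most, with 51 to 87 reads.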

Other observations

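Cldn1 and Cldn2, claudins of epithelia and choroid plexus, were picked out after their values were seen. Cldn2 had a level of 31.2 in Cx43-deleted, against 27.4 in WT C57BL6-BALB/c, and 57.3 in the WT C57BL6 library. Cldn1 was at 13.3 in Cx43-deleted, against 7.31 in WT C57BL6-BALB/c, and 17.1 in the WT C57BL6 library. Both were highest in WT C57BL6 and lowest in WT C57BL6-BALB/c, the order of the summed choroid plexus markers. The median log2 ratio of those markers was 0.37 for Cx43-deleted over WT C57BL6-BALB/c and −0.84 over WT C57BL6. WT C57BL6 was the highest library for 43.8% of all genes, and the share with the full order was not worked out. Cldn9, Cldn15 and Cldn19 also showed this order, as did some endothelial markers, among them Vwf and Abcb1a. The order was thus not particular to choroid plexus markers. Cldn3, Ocln and Marveld2, which epithelia also express, did not show that order. The part of choroid plexus in these levels was not tested.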
